A study of Homo sapiens with 9 samples.

Results

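The respiratory chain is the set of inner mitochondrial membrane complexes that carry electrons to oxygen and use the resulting proton gradient to make ATP. In the gene tables of an NCI-H358 sotorasib resistance study, 105 of 60230 genes were read as its members. They were taken by symbol: protein-coding genes named for subunits of complexes I to V, plus the 13 protein genes of mitochondrial DNA. Of the 105, 92 were nuclear and 13 mitochondrially encoded. The nuclear genes comprised 84 subunits, of which 36 belonged to complex I, 4 to complex II, 8 to complex III, 19 to complex IV and 17 to complex V. Subunits with other names, such as CYC1 of complex III, are not in these counts or in the sums per complex. The other nuclear genes were 4 assembly factors of complex II, 2 intronless copies (UQCRHL and ATP5MGL) and 2 readthrough genes (ATP5MF-PTCD1 and NDUFC2-KCTD14). The symbol pattern also met 194 genes that are not protein-coding, 188 of them pseudogenes, and these were dropped. Subunits share sequence with such copies, so reads may have been split between them, and readthrough genes share exons with their parents.

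Poly(A) RNA came from the established human lung cancer line NCI-H358 in 3 states, each with 3 libraries. Resistant NCI-H358-R cells on drug had been dosed with 250 nM sotorasib, a targeted cancer drug, and were profiled after 4 days. Resistant cells off drug were the same derivative without the drug. Parental cells were untreated and sensitive. NCI-H358-R is a single derivative that had been kept in 250 nM sotorasib for about 2 months, so what is particular to that derivative and what belongs to resistance cannot be told apart. The sources used here do not state the length of the drug-free period. The libraries are called biological replicates, but no source names separate cultures, and the p-values therefore reflect differences among libraries that may be partly technical.

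Complex I (NADH dehydrogenase) and complex II (succinate dehydrogenase) feed electrons to ubiquinone, complex III (cytochrome bc1) passes them to cytochrome c, and complex IV (cytochrome c oxidase) hands them to oxygen. Complex V is the ATP synthase. Complex II is wholly nuclear-encoded, whereas each of the other complexes also holds subunits made inside the mitochondrion, so both genomes must be expressed. Regulators of the nuclear genes include NRF1, GABPA, ESRRA, YY1 and the PPARGC1 coactivators, and TFAM and POLRMT serve transcription of mitochondrial DNA.

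Total estimated counts per library lay between 2.57e+07 and 3.47e+07. On-drug libraries differed in makeup from the rest: they had counts for 24191 to 24360 genes, while the other 6 had them for 22081 to 22957, and TMM gave them factors of 1.113 to 1.124, with 0.917 to 0.972 for the other 6. With library size alone, the median log2 change of all genes became 0.27 on drug against off drug and 0.24 on drug against parental, so on-drug changes are given relative to a TMM baseline where these medians were 0.016 each. The line's epithelial markers were present (EPCAM, keratins, CDH1 and NKX2-1), with SFTPB and SCGB3A2 under 1 TPM in every library. They summed to 2846 to 3764 TPM on drug, 4101 to 4651 TPM off drug and 3947 to 4694 TPM in parental libraries. The on-drug sums thus lay below all others. Fibroblast markers summed to 79.8 to 99.5 TPM on drug, 6.13 to 7.84 TPM off drug and 8.0 to 10.4 TPM in parental libraries, with COL1A2, PDGFRA, PDGFRB and DCN, 4 of the 9, under 1 TPM throughout. Leukocyte markers summed to 7.60 to 8.42, 50.1 to 61.2 and 39.6 to 44.2 TPM in the same order, with PTPRC, CD3E and MS4A1 under 1 TPM. Endothelial markers stayed at 10.1 summed TPM or less, muscle markers at 2.77 or less and erythroid markers at 0.257 or less. The part of these markers in the results below was not tested. In bulk RNA, fewer cells of a type and less RNA per cell cannot be told apart.

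The libraries of a state differed in a shared way across members, and not in the same order for the nuclear and mitochondrial ones. On-drug replicate 2 was the highest of its group for 71 of the 87 nuclear members tested and the lowest for 13 of 13 mitochondrial members. Parental replicate 3 was the highest for 77 nuclear members and the lowest for 13 of 13 mitochondrial ones. Off-drug replicate 3 was the highest for 79 nuclear members but the lowest for 1 mitochondrial member. Off-drug replicate 1 was the lowest for 12 of 13 mitochondrial members and the highest for 6 nuclear ones, and off-drug replicate 2 was the highest for 13 of 13 mitochondrial members and the lowest for 66 nuclear ones. The 13 mitochondrial genes took 4.19, 3.36 and 4.33% of counts on drug, 2.60, 3.05 and 2.70% off drug, and 4.18, 4.37 and 3.16% in parental cells. In these shares of counts, all on-drug and all parental libraries lay above the off-drug ones, while on-drug and parental libraries overlapped. In shares of TPM the states were not separate. Off-drug replicate 2, at 7.49%, lay above on-drug replicate 2 at 7.45% and parental replicate 3 at 6.62%. Counts of the nuclear copies of mitochondrial genes were 0.626 to 0.833% of the mitochondrial reads, so their addition left the shares of counts almost as they were.

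Levels are compared between genes in TPM, which is scaled for transcript length. By mean TPM over all libraries, the strongest nuclear members were ATP5ME, COX6A1, UQCRH and COX7C, all small subunits. COX6A1 had 1365 ± 88.3 TPM on drug, 1113 ± 97.9 off drug and 1246 ± 59.0 in parental cells (SD, n = 3 each). MT-ATP8 stood at 14706 ± 2074 TPM on drug, 11392 ± 2026 off drug and 12156 ± 2543 in parental cells; it overlaps MT-ATP6 on a shared transcript, so their split is uncertain. Summed over the 13 mitochondrial genes, TPM was 3.46 ± 0.74 times the nuclear subunit sum on drug, 3.03 ± 0.45 times off drug and 3.25 ± 0.67 times in parental cells (SD, n = 3), ranges that overlapped. Several subunits have a second gene whose use is usually confined to certain tissues. COX4I2, COX6A2, COX7A1, COX8C and ATP5MGL had at most 11 counts in any library and were not tested, which left 100 members. COX6B2, a form of COX6B known from testis, stood at 0.443 ± 0.240 TPM on drug, 6.66 ± 1.22 off drug and 8.27 ± 1.26 in parental cells, while its common relative COX6B1 had 631 ± 17.9, 494 ± 21.8 and 521 ± 35.0 TPM. COX7B2, also known from testis, exceeded COX7B in every library: it had 170 ± 23.7 TPM on drug, 133 ± 9.28 off drug and 256 ± 11.6 in parental cells, against 70.5 ± 15.6, 50.7 ± 3.62 and 73.3 ± 4.12 TPM for COX7B.

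Off drug, the resistant cells held less mRNA for much of the chain than parental cells, from both genomes. Of the 87 nuclear members tested, 50 fell and 1 rose, and of the 13 mitochondrial members 8 fell and 0 rose (edgeR quasi-likelihood test, adjusted p under 0.05). Over all 17307 genes tested, 26.6% were called lower and 28.4% higher. The median log2 change was -0.29 over nuclear and -0.35 over mitochondrial members, against 0.0008 over all genes. No mitochondrial member had an estimate above 0, so that 0 also passed an unadjusted p under 0.05 in the higher direction, and DESeq2 called 0. By complex, 21 of 36 nuclear genes fell in complex I, 2 of 4 in complex II, 4 of 8 in complex III, 11 of 15 tested in complex IV and 12 of 17 in complex V. All 50 nuclear and 8 mitochondrial falls were called under each of the count scalings tried. In every alternative, with each library left out among them, 29 nuclear and 2 mitochondrial falls were called. With limma on log2(TPM + 1), where the median of all genes was 0.13, 33 nuclear and 5 mitochondrial falls were called.

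**Figure D1:**
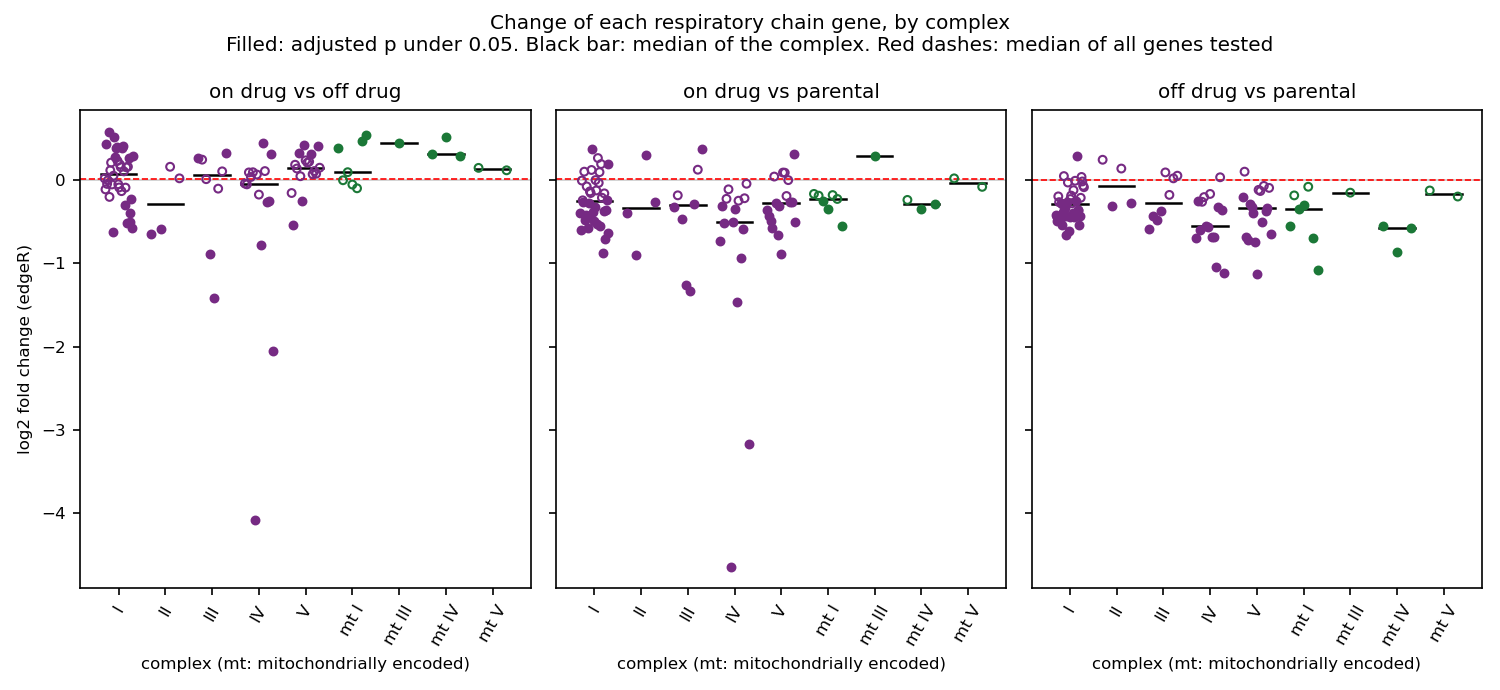
Log2 fold change (edgeR, vertical axis) of each tested subunit gene, grouped by complex (horizontal axis), nuclear genes in purple and mitochondrially encoded genes in green, in 3 comparisons. Between off-drug and parental cells most points lie below the dashed median of all genes, whereas between on-drug and off-drug cells they spread to both sides, with COX6B2 lowest at -4.09.

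The deepest fall of a well-expressed nuclear member off drug was that of ATP5ME, the e subunit of the ATP synthase membrane part. It had 72.3, 76.7 and 88.3 CPM off drug, against 175, 159 and 185 CPM in parental cells, and the groups did not overlap. Its log2 change was -1.13 ± 0.11 (SE; adjusted p = 5.5e-07). COX7B2 followed, with 32.5, 33.4 and 40.9 CPM off drug, against 76.3, 68.8 and 75 CPM in parental cells (log2 change -1.04 ± 0.12, adjusted p = 3.7e-06). COX7B fell as well, by 0.69 on the log2 scale, so the less usual isoform and its common relative were both lower. COX4I1, the common form of the largest nuclear subunit of complex IV, had 317, 290 and 347 CPM off drug, against 503, 461 and 577 CPM in parental cells. Its log2 change was -0.69 ± 0.10 (adjusted p = 1.9e-05). COX7A2L, which serves the joining of complexes III and IV into supercomplexes, fell by 0.68, and ATP5MC3, a gene for the c ring of the ATP synthase rotor, by 0.74. In complex III, UQCR10 fell by 0.59 and UQCRB by 0.48. In complex I the largest falls were those of the accessory subunits NDUFB1 and NDUFB3, by 0.66 and 0.62, and NDUFS5 fell by 0.53. These calls held in each alternative and with each library left out.

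Complex I has accessory and core subunits. Of its 29 accessory subunits, 19 fell off drug against parental cells, where 26.6% of all genes did. Of its 7 nuclear core subunits, 2 fell and 1 rose, where 28.4% of all genes rose. That rise was not called under each of the count scalings. Most core subunits carry the flavin or iron-sulfur clusters or form the site of ubiquinone reduction. Over all nuclear members, the number of rises in this comparison was 0 without parental replicate 1 and 3 without parental replicate 3. The difference between core and accessory subunits was not tested.

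The mitochondrial genes differed among themselves off drug. MT-ND6 fell most, with 586, 726 and 675 CPM off drug, against 1432, 1476 and 1297 CPM in parental cells (log2 change -1.08 ± 0.12, adjusted p = 1.3e-06). It lies on the opposite strand from the other protein genes, and with no strand setting stated, its reads and those of antisense RNA cannot be told apart. MT-CO2, which holds the site that takes electrons from cytochrome c, had 1374, 1591 and 1456 CPM off drug, against 2694, 2879 and 2460 CPM in parental cells (log2 change -0.86 ± 0.10, adjusted p = 3.9e-06). Both calls held in every alternative. MT-CO3 and MT-CO1, the other core subunits of complex IV, fell by 0.58 and 0.56. The complex I genes MT-ND5, MT-ND1, MT-ND3 and MT-ND4 fell by 0.70, 0.55, 0.35 and 0.30, but the MT-ND4 call was lost without parental replicate 1 or 2 or without off-drug replicate 1 or 3, with an adjusted p of up to 0.187, and with the replicate block. With limma on TPM, MT-ND3, MT-ND4 and MT-ND5 were called in none of the 3 fits, MT-ND1 and MT-CO1 were called with log2(TPM + 1) alone, and MT-CO3 was lost without a filter. MT-ND2, MT-ND4L, MT-CYB, MT-ATP6 and MT-ATP8 had log2 changes of -0.19, -0.08, -0.15, -0.13 and -0.20 and did not pass the test. Of these, MT-ND2, MT-ND4L, MT-CYB and MT-ATP8 passed it without parental replicate 3, the library with the lowest mitochondrial share of its group.

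**Figure D2:**
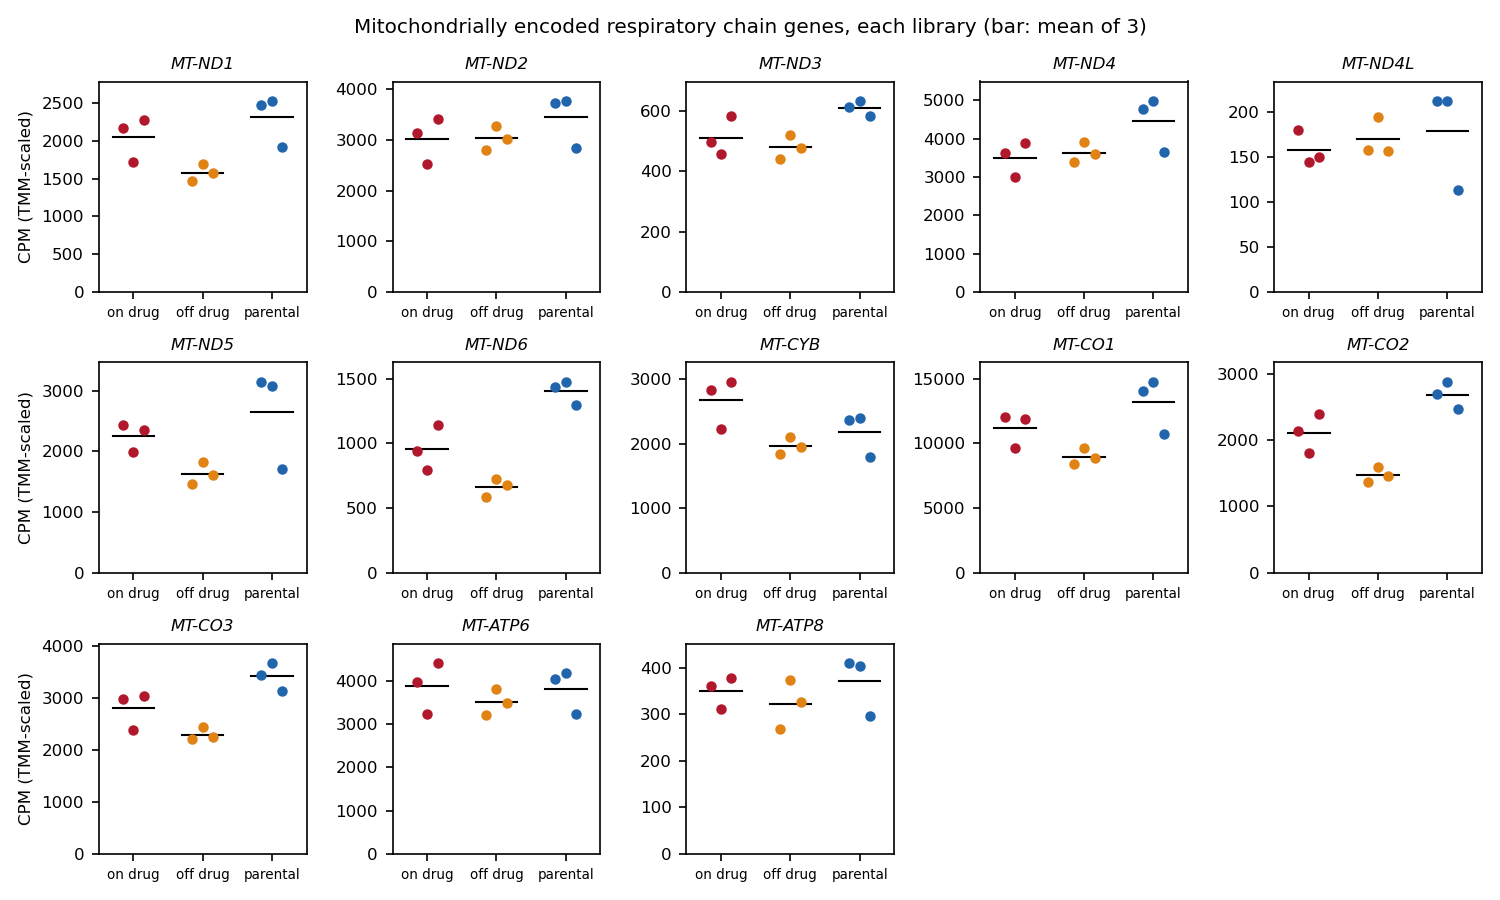
TMM-scaled CPM (vertical axes, from 0) of the 13 mitochondrially encoded genes in the on-drug, off-drug and parental libraries; points are libraries in the order of their replicate numbers and bars are means of 3. For MT-ND1, MT-CO2 and MT-ND6 all off-drug points lie below all on-drug and parental points. On-drug replicate 2 and parental replicate 3 are the lowest of their groups in every panel.

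On drug against off drug, the mitochondrial genes that changed were higher, while the nuclear genes spread to both sides. Of the 13 mitochondrial members, 7 rose and 0 fell, and of the 87 nuclear members tested, 19 rose and 20 fell. Over all genes tested, 31.4% were called higher and 31.2% lower, so the nuclear counts lie below this background in both directions. The median log2 change was 0.29 over mitochondrial and 0.075 over nuclear members, against 0.016 over all genes. Of the mitochondrial estimates, 3 were below 0, with 0 of them at an unadjusted p under 0.05, and DESeq2 called 0 lower. With library size alone, 54 nuclear members were called higher and 13 lower, and over all genes the share of calls that were higher moved to 68.4%, against 50.1% with TMM. In every alternative, 11 of the 19 nuclear rises and 11 of the 20 falls were called. All 19 nuclear rises and 13 of the 20 falls were called under each of the count scalings. Relative to the median of all genes, the nuclear median was 0.059 to 0.061 and the mitochondrial one 0.27 under these scalings, and the nuclear one was -0.048 without on-drug replicate 2, the library highest for most nuclear members. Fibroblast markers moved with the state here, with 79.8 to 99.5 summed TPM on drug and 6.13 to 7.84 off drug. Epithelial markers were lower on drug, at 2846 to 3764 summed TPM, against 4101 to 4651 off drug. The part of these markers in the result was not tested.

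MT-CO2 had 2131, 1804 and 2395 CPM on drug, against 1374, 1591 and 1456 CPM off drug, without overlap (log2 change 0.52 ± 0.10, adjusted p = 0.00041). MT-ND6 rose by 0.53 ± 0.12 and MT-CYB, the cytochrome b of complex III, by 0.44 ± 0.12. MT-CYB had 2838, 2229.5 and 2962 CPM on drug, against 1839, 2110.5 and 1950.5 CPM off drug. These calls held in every alternative. MT-ND5, MT-ND1, MT-CO1 and MT-CO3 had log2 changes of 0.47, 0.38, 0.32 and 0.29 and passed the test with all libraries, and the groups overlapped for MT-CO1 and MT-CO3. The last of these calls, and those of MT-ND5 and MT-CO1, were lost without off-drug replicate 1 or 3 or on-drug replicate 1 or 3, and that of MT-ND1 without off-drug replicate 1 or on-drug replicate 3. The adjusted p then reached up to 0.105. The number of mitochondrial rises was accordingly 3 without off-drug replicate 1 or on-drug replicate 3, 4 without off-drug replicate 3 or on-drug replicate 1, and at most 8. MT-ND2, MT-ND3, MT-ND4, MT-ND4L, MT-ATP6 and MT-ATP8 had log2 changes between -0.10 and 0.15 and did not pass. MT-ATP6 did so without on-drug replicate 2 (adjusted p = 0.0472).

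The largest nuclear falls on drug lay in a few subunits of each complex. UQCRC2, a core protein of complex III, had 49.1, 55.0 and 42.0 CPM on drug, against 132, 123 and 137 CPM off drug (log2 change -1.42 ± 0.09, adjusted p = 2.5e-09). Its partner UQCRC1 had 221, 213 and 207 CPM on drug, against 399, 384 and 405 CPM off drug (log2 change -0.89 ± 0.09, adjusted p = 3.2e-07). The groups were far apart for both, while UQCRH, the hinge protein of the same complex, had a log2 change of 0.10 and did not pass the test. UQCRQ and UQCR10 rose by 0.32 and 0.27. Those rises were lost without off-drug replicate 1 or 2 or on-drug replicate 2, and that of UQCR10 also without on-drug replicate 3, with an adjusted p of up to 0.195.

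In complex II, the iron-sulfur subunit SDHB had 56.9, 66.9 and 65.9 CPM on drug, against 94.1, 89.2 and 102 CPM off drug (log2 change -0.59 ± 0.09, adjusted p = 3.3e-05). The flavoprotein SDHA fell by 0.65, to 107, 85.9 and 100.5 CPM on drug, against 158, 149 and 151 CPM off drug, but its call was lost with limma on log2(TPM + 0.1) or without a filter. The membrane anchors SDHC and SDHD had log2 changes of 0.16 and 0.02 and did not pass, though SDHC did without on-drug replicate 1 (adjusted p = 0.0422). Among assembly factors, SDHAF4, which stabilises free flavinylated SDHA, had 13.3, 20.8 and 16 CPM on drug, against 53.9, 48.1 and 59.3 CPM off drug (log2 change -1.69 ± 0.13, adjusted p = 1.4e-08). SDHAF2, which inserts the flavin into SDHA, moved the other way: it had 51.2, 58.3 and 57.2 CPM on drug, against 33.0, 31.8 and 37.0 CPM off drug (log2 change 0.71 ± 0.09, adjusted p = 4.0e-06). Thus SDHA, SDHB and SDHAF4 were lower on drug and SDHAF2 was higher, with no overlap between the groups for any of these.

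In complex IV the largest falls on drug were those of genes with low levels. COX6B2 had 0.288, 0.403 and 0.802 CPM on drug, against 9.0, 8.59 and 8.05 CPM off drug (log2 change -4.09 ± 0.24, adjusted p = 5.0e-10). NDUFA4L2, a relative of the subunit NDUFA4 known to be induced in hypoxia, had 0.810, 0.592 and 0.879 CPM on drug, against 2.70, 3.31 and 3.50 CPM off drug (log2 change -2.05 ± 0.21, adjusted p = 3.5e-07). COX7A2L fell by 0.78, to 89.9, 121 and 107 CPM on drug, against 176, 169 and 199 CPM off drug. COX7B2 and COX4I1 had log2 changes of 0.11 and -0.04 and did not pass, while COX7B rose by 0.44. COX7A2, the common relative of COX7A1, had a log2 change of -0.18 and did not pass, except without on-drug replicate 2 (adjusted p = 0.0122). COX8A fell by 0.25 and NDUFA4 rose by 0.32, calls that were lost without off-drug replicate 1 or on-drug replicate 3, for COX8A also without off-drug replicate 3 or on-drug replicate 1, and for NDUFA4 also without off-drug replicate 2 or on-drug replicate 2 (adjusted p of up to 0.251). COX8A had an estimate of 0.0043 with library size alone. The COX7B call was lost with limma on log2(TPM + 1) without a filter.

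In complex I, 5 of the 7 nuclear core subunits fell on drug, and of the 29 accessory subunits 10 rose and 2 fell. The 10 rises are 34.5% of the accessory subunits, close to the 31.4% of all genes called higher. The falls are 71.4% of the core and 6.9% of the accessory subunits, against 31.2% of all genes called lower. That difference was not tested. NDUFV2, an iron-sulfur protein of the arm that takes up NADH electrons, had 119, 158 and 144 CPM on drug, against 197, 198 and 231 CPM off drug (log2 change -0.57 ± 0.10, adjusted p = 0.00015). NDUFS7, NDUFS8 and NDUFS1, which carry iron-sulfur clusters, fell by 0.50, 0.39 and 0.30. The fifth, the flavin-binding NDUFV1, had a log2 change of -0.22, and its call was lost when any 1 of the 6 libraries was left out (adjusted p of up to 0.106). The other 4 were called with each library left out, but NDUFS8 and NDUFS1 were not called with library size alone, and NDUFS7, NDUFS8 and NDUFS1 were not called with limma on TPM. Of the accessory subunits, NDUFA8 fell by 0.63 and NDUFS4 by 0.51. NDUFA2 rose by 0.58, with 72.4, 94.7 and 76.8 CPM on drug, against 55.9, 46.8 and 60.8 CPM off drug, and NDUFB1 and NDUFB2 rose by 0.52 and 0.40. In complex V, ATP5F1B, the catalytic beta subunit, fell by 0.54 ± 0.08, to 476, 457 and 446 CPM on drug, against 682, 657 and 661 CPM off drug. ATP5MC3 and ATP5PF, a stalk subunit, rose by 0.42 and 0.41, and ATP5MC2, another c ring gene, fell by 0.26, but this call did not hold without off-drug replicate 3 (adjusted p = 0.053), with library size alone or with limma on TPM. ATP5MC1, the remaining c ring gene, had a log2 change of 0.045 and ATP5ME of 0.24, and neither passed. ATP5ME did so without off-drug replicate 3 or on-drug replicate 1 (adjusted p down to 0.00806).

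**Figure D3:**
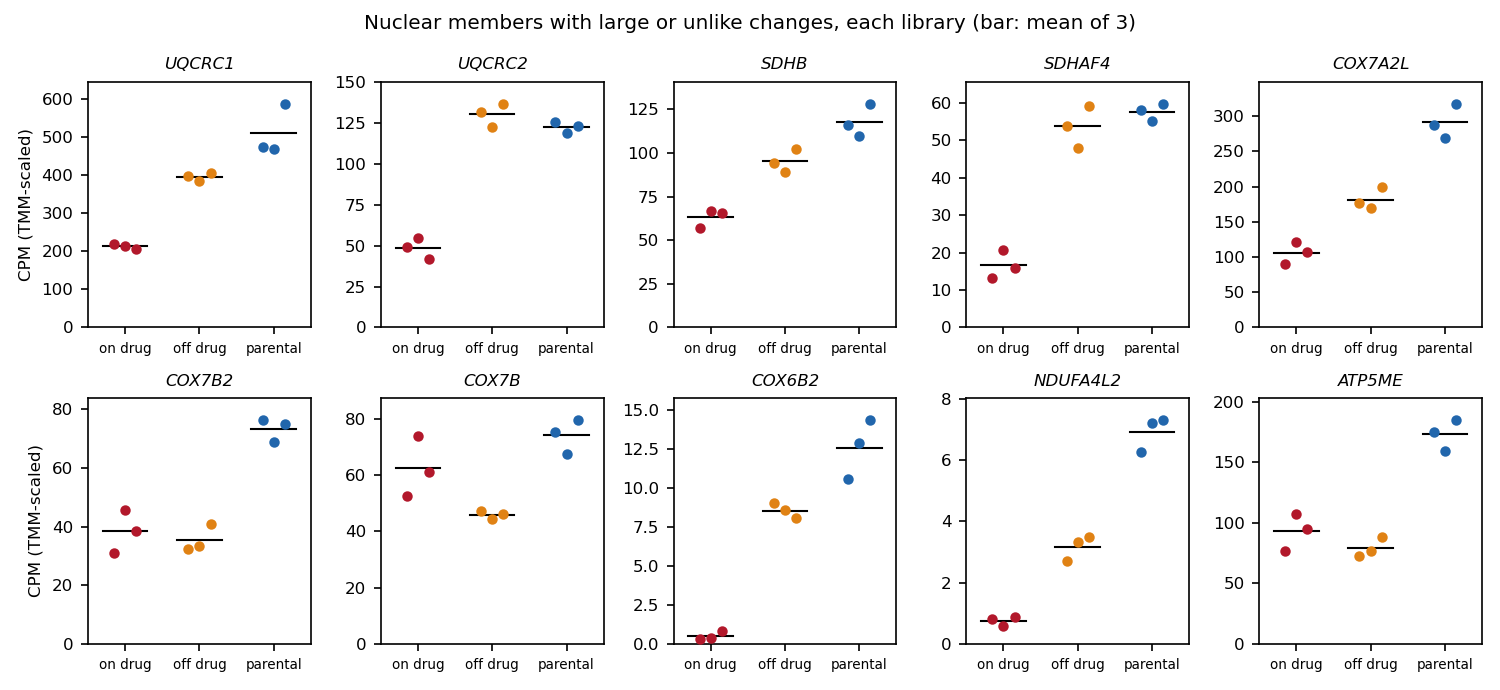
TMM-scaled CPM (vertical axes, from 0) of 10 nuclear members in the on-drug, off-drug and parental libraries; points are libraries in the order of their replicate numbers and bars are means of 3. UQCRC2 and SDHAF4 are low in the on-drug libraries alone, ATP5ME and COX7B2 are low in both resistant states, and UQCRC1, SDHB, COX7A2L, COX6B2 and NDUFA4L2 step down in both.

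Promoter windows are shown for UQCRC1, UQCRC2 and SDHB, which were among the clearest falls on drug, for NDUFB2, which rose, and for ATP5ME, the deepest fall off drug. Each runs 5′ to 3′ from 250 bases before to 50 bases after a RefSeq start on GRCh38.p14 (the first listed where a gene has several), so its end lies in the first exon. Capitals mark matches on either strand to NRF1 (CGCANGCG), an ETS factor such as GABPA (CCGGAAG), YY1 (AAGATGGCG), the cyclic AMP response element CRE (TGACGTCA), ERR (TCAAGGTCA) or the E-box (CACGTG).
UQCRC1, chr3:48609597-48609896, minus strand: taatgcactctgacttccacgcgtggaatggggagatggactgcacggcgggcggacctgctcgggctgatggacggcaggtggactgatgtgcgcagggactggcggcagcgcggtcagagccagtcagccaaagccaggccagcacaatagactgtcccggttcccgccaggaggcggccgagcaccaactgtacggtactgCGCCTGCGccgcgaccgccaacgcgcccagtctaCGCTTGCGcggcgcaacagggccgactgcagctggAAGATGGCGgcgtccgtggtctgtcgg
UQCRC2, chr16:21953111-21953410, plus strand: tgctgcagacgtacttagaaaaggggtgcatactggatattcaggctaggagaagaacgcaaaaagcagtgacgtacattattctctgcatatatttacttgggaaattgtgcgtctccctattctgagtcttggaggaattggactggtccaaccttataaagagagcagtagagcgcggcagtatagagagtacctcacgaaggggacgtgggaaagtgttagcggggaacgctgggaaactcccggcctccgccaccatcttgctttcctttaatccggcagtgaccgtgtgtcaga
SDHB, chr1:17053983-17054282, minus strand: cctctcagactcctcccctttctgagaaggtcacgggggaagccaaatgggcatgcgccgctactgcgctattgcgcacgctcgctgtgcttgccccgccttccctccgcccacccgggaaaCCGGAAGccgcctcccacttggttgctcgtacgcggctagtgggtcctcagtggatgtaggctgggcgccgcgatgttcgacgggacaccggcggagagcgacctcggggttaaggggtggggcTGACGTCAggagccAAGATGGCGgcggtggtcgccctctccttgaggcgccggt
NDUFB2, chr7:140696458-140696757, plus strand: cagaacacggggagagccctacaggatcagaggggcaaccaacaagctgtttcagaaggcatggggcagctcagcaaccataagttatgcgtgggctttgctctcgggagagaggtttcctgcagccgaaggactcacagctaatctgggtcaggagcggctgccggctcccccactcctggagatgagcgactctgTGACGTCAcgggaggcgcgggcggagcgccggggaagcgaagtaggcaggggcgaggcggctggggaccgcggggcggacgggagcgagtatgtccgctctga
ATP5ME, chr4:674227-674526, minus strand: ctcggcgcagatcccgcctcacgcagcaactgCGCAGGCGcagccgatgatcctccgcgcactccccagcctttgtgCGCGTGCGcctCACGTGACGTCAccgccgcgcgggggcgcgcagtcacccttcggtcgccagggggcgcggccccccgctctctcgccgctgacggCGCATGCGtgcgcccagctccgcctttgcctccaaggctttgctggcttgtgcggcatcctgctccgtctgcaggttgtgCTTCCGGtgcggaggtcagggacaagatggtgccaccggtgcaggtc
The window of UQCRC1 holds NRF1 matches at bases 205 to 212 and 239 to 246 and a YY1 match at bases 274 to 282. That of SDHB holds an ETS match at bases 123 to 129, a CRE at bases 247 to 254 and a YY1 match at bases 261 to 269. The NDUFB2 window holds a CRE at bases 198 to 205. In the ATP5ME window there are NRF1 matches at bases 33 to 40, 78 to 85 and 174 to 181, an E-box at bases 89 to 94 that overlaps a CRE at bases 93 to 100, and an ETS match at bases 254 to 260. None of these letters was found in the UQCRC2 window. Of the 84 nuclear subunits, 70 had a promoter in the RefSeq table. Of these, 34.3% held the NRF1 letters, against 13.8% of 15843 protein-coding promoters, 28.6% the ETS letters, against 14%, and 12.9% the YY1 letters, against 2.66%. The shares were 7.14 and 2.52% for CRE, 1.43 and 0.227% for ERR, and 10% and 8.55% for the E-box. A match is a description of letters, not of binding.

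On drug against parental cells, the nuclear members were again mostly lower, and more mitochondrial members fell than rose. Of the 87 nuclear members, 50 fell and 7 rose, with a median log2 change of -0.28, and of the 13 mitochondrial members 5 fell and 1 rose, with a median of -0.23. Over all genes, 32.9% were called lower and 33.4% higher, with a median of 0.016. The mitochondrial falls, 38.5% of these members, lie near that share, while the nuclear falls are 57.5%. Both this comparison and the one off drug use the parental libraries, so they are not independent. The counts depend on the scale: 29 nuclear members were called lower and 17 higher with library size alone, and 18 lower and 25 higher with limma on log2(TPM + 1), where the nuclear median was 0.039 and the median of all genes 0.27. The mitochondrial median was -0.010 with library size alone and 0.11 with limma, and 1 and 0 members were called lower. Relative to the median of all genes, the nuclear median lay between -0.30 and -0.29 under each of the count scalings and at -0.23 with limma on log2(TPM + 1). With limma on log2(TPM + 1) without a filter it was -0.0089 and the mitochondrial one 0.069. The nuclear falls called in every alternative numbered 18, and of the rises only that of SDHAF2 was.

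COX6B2 and NDUFA4L2 were the lowest here too, with log2 changes of -4.64 ± 0.23 and -3.18 ± 0.20 on drug against parental cells, and parental levels of 10.6, 12.9 and 14.3 CPM and of 6.28, 7.21 and 7.29 CPM. COX7A2L was at -1.46 ± 0.11, with 288, 269 and 318 CPM in parental cells. UQCRC2 had a log2 change of -1.33 ± 0.09 and UQCRC1 of -1.26 ± 0.09, with parental levels of 126, 119 and 123 CPM and of 476, 469 and 588 CPM. SDHB fell by 0.90 and SDHAF4 by 1.79, against parental levels of 116, 110 and 128 CPM and of 58.2, 55.2 and 59.8 CPM. ATP5ME fell by 0.89, COX7B2 by 0.94 and COX4I1 by 0.73. In complex I, NDUFS4, NDUFS7 and NDUFV2 fell by 0.87, 0.71 and 0.64. In complex V, ATP5MC2 fell by 0.66 and ATP5F1B by 0.44. The calls of NDUFS7 and ATP5F1B were lost with limma on TPM, and the others of these held in every alternative. SDHAF2 rose by 0.67 ± 0.09 (adjusted p = 6.4e-06). The other rises were those of a readthrough gene, of NDUFV3 (0.20), and of NDUFB2 (0.37), UQCRQ (0.37), ATP5PF (0.31) and SDHC (0.30). The last 4 were lost without on-drug replicate 2 (adjusted p of up to 0.0789), and those of ATP5PF and SDHC also without parental replicate 2. The NDUFV3 call was lost without parental replicate 1 or 2 or on-drug replicate 1 or 3 (adjusted p of up to 0.148). In these refits the number of nuclear rises was 3 without parental replicate 2 and 4 without on-drug replicate 2.

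Among mitochondrial genes on drug, MT-ND6 fell by 0.55 and MT-CO2 by 0.34 against parental cells, with each library left out, but neither was called with limma on TPM, nor MT-CO2 with library size alone. MT-ND4, MT-CO3 and MT-ND3 had log2 changes of -0.35, -0.29 and -0.26. The call of MT-ND4 was lost without parental replicate 1 or 2 or on-drug replicate 2, that of MT-CO3 without parental replicate 2 or on-drug replicate 2, and that of MT-ND3 without parental replicate 1 or 2 or on-drug replicate 1 or 2 (adjusted p of up to 0.0858). MT-CYB rose by 0.29, a call lost without parental replicate 3 or without on-drug replicate 1 or 3 (adjusted p of up to 0.198). The number of falls was 2 without parental replicate 2 or on-drug replicate 2, 3 without parental replicate 1, and 10 without parental replicate 3.

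Per complex, the mean summed TPM of the nuclear subunits was lowest off drug. For complexes I, IV and V all off-drug libraries lay below all others, while for complexes II and III off-drug and parental libraries overlapped. For complex V the sum was 7473 ± 511 TPM on drug, 5813 ± 171 off drug and 7296 ± 259 in parental cells (SD, n = 3 each), so that off-drug cells were at 79.7% of the parental mean. For complex IV the sums were 6757 ± 346, 5979 ± 180 and 7088 ± 294 TPM, and for complex I 9019 ± 571, 7028 ± 227 and 8065 ± 373 TPM, in the same order. Complex II, the wholly nuclear complex, had 771 ± 41.5 TPM on drug, 721 ± 18.8 off drug and 724 ± 10.7 in parental cells. The mitochondrial genes of complex IV summed to 27971 ± 4478 TPM on drug, 18223 ± 1839 off drug and 26963 ± 4153 in parental cells. MT-CYB alone was at 154% of the parental mean on drug and at 94.2% off drug. The on-drug nuclear sum was at 104% of the parental mean in TPM, while most nuclear members were lower in the test on counts.

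**Figure D4:**
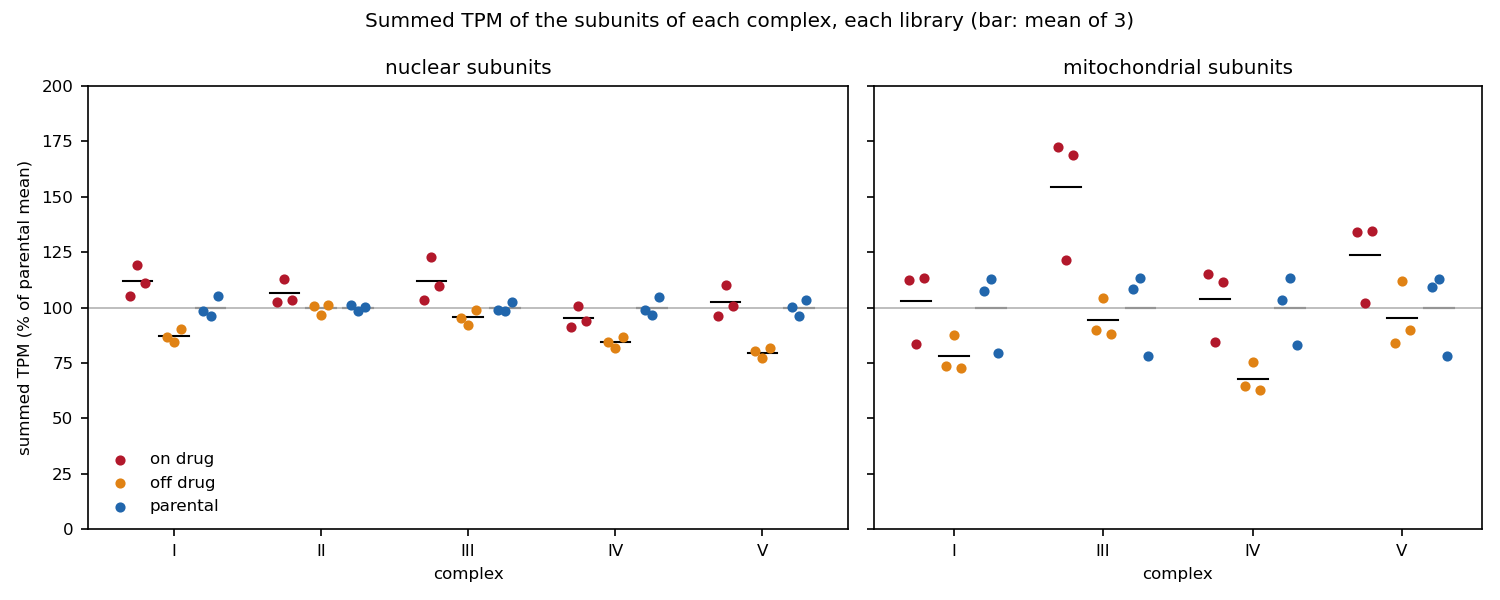
Summed TPM of the nuclear (left) and mitochondrially encoded (right) subunits of each complex, as a percent of the parental mean (vertical axis, from 0), by complex; points are libraries and bars are means of 3. Off-drug libraries lie below all others for nuclear complexes I, IV and V, with complex V at 79.7%, and for mitochondrial complex IV.

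Genes that belong to the chain or work with it but are named otherwise were read from gene lists. The other subunits and electron carriers (NDUFAB1, CYC1, CYCS, ATP5IF1, ETFA, ETFB and ETFDH) fell for 4 of 7 off drug against parental cells, 5 of 7 on drug against off drug and 7 of 7 on drug against parental cells, with median log2 changes of -0.26, -0.45 and -0.70. Over all genes, 26.6%, 31.2% and 32.9% were called lower in these comparisons. ETFB, a subunit of the electron transfer flavoprotein of fatty acid oxidation, had 52.7 ± 2.20 CPM on drug, 90.4 ± 3.21 off drug and 160 ± 21.1 in parental cells (SD, n = 3), with log2 changes of -0.78 on drug against off drug and -0.83 off drug against parental cells. CYC1, the cytochrome c1 of complex III, fell by 0.56 on drug against off drug. Its fall of 0.26 off drug against parental cells was lost without parental replicate 1 or 3 or off-drug replicate 1 or 2 (adjusted p of up to 0.17). Assembly factors moved both ways. On drug against off drug, 5 of 16 for complex I rose and 5 fell, 2 of 6 for complex III rose and 3 fell, 8 of 22 for complex IV rose and 5 fell, and 2 of 5 for the ATP synthase rose and 1 fell, and their median log2 changes were -0.14, -0.28, -0.078 and -0.077. With 31.4% of all genes called higher and 31.2% lower, the complex I and IV counts lie near the background. NDUFAF6 rose by 0.93 and COX20, which handles newly made COX2, by 1.24, while COX18, which exports part of COX2 across the inner membrane, fell by 0.70. TTC19, a factor of complex III, fell by 0.72 off drug against parental cells and by 0.42 on drug against off drug, though this second call was lost with library size alone and with limma on TPM.

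Of 14 tested regulators of the chain, 5 rose (35.7%) and 3 fell (21.4%) off drug against parental cells, near the 28.4% and 26.6% of all genes, with a median log2 change of -0.008. NRF1 had 17.6 ± 1.49 CPM off drug, against 10.5 ± 0.783 in parental cells (log2 change 0.75 ± 0.10, adjusted p = 1.4e-05), and PPRC1, a PPARGC1-related coactivator, rose by 1.14 and GABPA by 0.50. ESRRA and the coactivator PPARGC1B had log2 changes of -0.16 and -0.13 and did not pass. PPARGC1A, at 0.760 ± 0.215 CPM off drug and 1.81 ± 0.353 in parental cells, fell by 1.23 in the test on counts at a level near 1 CPM. In the deposited TPM it stood at 0.374 ± 0.353 off drug and 0.350 ± 0.0904 in parental cells, which show no fall. On drug against off drug, ESRRA had 37.7 ± 2.82 CPM on drug and 65.7 ± 3.65 off drug (log2 change -0.80 ± 0.10, adjusted p = 3.8e-06), NRF1 had a log2 change of 0.09 and did not pass, and PPRC1 and GABPA fell by 0.34 and 0.31. As a list, 3 of 14 rose and 5 fell on drug against off drug (31.4% and 31.2% over all genes), and 6 rose and 4 fell on drug against parental cells (33.4% and 32.9%), with medians of -0.17 and 0.069. On drug against off drug, PPRC1 and GABPA were not called with library size alone, and the PPRC1 estimate was 0.14 with limma on log2(TPM + 1).

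Of 18 genes for the transcription and upkeep of mitochondrial DNA, 6 rose and 6 fell off drug against parental cells, 8 rose and 8 fell on drug against off drug, and 9 rose and 8 fell on drug against parental cells, with medians of 0.086, -0.045 and 0.28. Over all genes, 28.4, 31.4 and 33.4% rose and 26.6, 31.2 and 32.9% fell, so the 6 of 18 each way off drug (33.3%) are near the background. TWNK, the replicative helicase, had 32.7 ± 2.96 CPM off drug, against 14.7 ± 0.882 in parental cells (log2 change 1.15 ± 0.10, adjusted p = 1.7e-07). TFB1M, an rRNA methyltransferase of the mitochondrial ribosome, had 6.68 ± 1.17 CPM on drug, against 18.9 ± 2.81 off drug (log2 change -1.50 ± 0.13, adjusted p = 7.2e-08). TFAM, the packaging and transcription factor, rose by 0.56 on drug against parental cells, by 0.30 on drug against off drug and by 0.26 off drug against parental cells. Those 2 smaller calls were lost without off-drug replicate 2 or on-drug replicate 2, and without parental replicate 2 or 3 or off-drug replicate 1 or 3, in that order of comparisons (adjusted p of up to 0.121). POLRMT, the mitochondrial RNA polymerase, fell by 0.46 on drug against off drug, with an estimate of 0.016 with limma on log2(TPM + 1). Of 20 genes for mitochondrial RNA processing and stability, 8 rose (40%) and 5 fell (25%) on drug against off drug, against 31.4% and 31.2% of all genes, with a median of 0.21. LRPPRC, which stabilises mitochondrial mRNAs, fell by 0.40 in that comparison, a call lost with library size alone and with limma on TPM, and FASTKD5, a factor of mitochondrial RNA processing, rose by 0.88.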

How the data were processed

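Poly(A) RNA of 9 NCI-H358 libraries was read from a table of estimated counts and a table of TPM, both as the authors deposited them. The tools bcl2fastq 2.17, FastQC 0.12.1 and Salmon 0.14.1 and the build GRCh38.p13 are listed, per the submitters' processing notes. Which annotation release and strand setting were used, and how transcripts were summed, the sources used here do not state. Biotypes came from GENCODE 29 and promoters from RefSeq (GRCh38.p14). With 2.57e+07 to 3.47e+07 counts per library, 3 counts equal 0.0864 to 0.117 CPM, a floor for counting error only.

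Estimated counts were rounded to whole numbers and fitted with edgeR 4.0.16 (quasi-likelihood, TMM, genes kept at a minimum count of 10) in 1 model of all 9 libraries, in R 4.3.3. P-values were adjusted by Benjamini-Hochberg over 17307 genes, and an adjusted p under 0.05 was called. The CPM are TMM-scaled, and log2 changes are from this fit. Alternatives were other scalings and filters, DESeq2 1.42.0, limma 3.58.1 on log2(TPM + 1) and log2(TPM + 0.1) (mean TPM of 1 or more), a replicate block and each library left out. The script was tested on simulated data, with changes set in 50 genes of any level for each size of change. Far fewer genes changed there than were called in the data, so the rates may differ in the data. In the simulation the script recovered 8 to 14% of 1.25-fold, 54 to 64% of 1.5-fold and 72 to 84% of 2-fold changes. Of its calls, 3.8 to 7.9% were false. A gene that did not pass may therefore still have a small change. Replicate numbers were checked for pairing. Deviations of same-numbered libraries correlated by -0.034 to 0.1355, and those of other pairs by -0.0995 to 0.0668. These ranges overlap and no pairing was modelled in the main fit, but 9 same-numbered pairs are too few to exclude one.

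The members and lists were chosen with earlier results of these data known. Genes were named by rule: all mitochondrial members, the succinate dehydrogenase subunits, the isoform genes, the 2 largest called rises and falls per complex and comparison, and up to 3 genes per list, of which the text gives a part. NDUFS1, NDUFS4, NDUFS8, NDUFV1, SDHAF2, SDHAF4, ATP5F1B and COX7C were also named, after their values were seen. Some single-gene results are not reported here.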

Additional observations from a re-analysis of the deposited data

How the results depend on the processing

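The balance of nuclear calls on drug depended on the scaling. With library size alone, on drug against off drug gave 3585 genes lower, 54 nuclear members higher and 13 lower, with medians of 0.33 (nuclear) and 0.54 (mitochondrial). On drug against parental cells it gave 17 nuclear members higher and 29 lower, 1 mitochondrial member lower and medians of -0.056 and -0.010. Upper-quartile factors gave 0 nuclear rises off drug against parental cells and 33 on drug against off drug. Without a low-count filter these were 2 and 29. DESeq2 and a fit of only the groups compared gave 2 nuclear rises off drug. A fit of only the groups compared and a stricter filter gave 0 mitochondrial rises on drug against parental cells.

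With limma on log2(TPM + 1), log2(TPM + 0.1) and log2(TPM + 1) without a filter, in that order, off drug against parental cells gave 2541, 2492 and 2806 genes, 33, 32 and 32 nuclear and 5, 3 and 2 mitochondrial members lower. Without a filter there were 2 nuclear rises and a nuclear median of -0.17. On drug against off drug the same fits gave 2937, 2860 and 3058 genes lower, 47, 46 and 46 nuclear members higher and 12, 11 and 12 lower, with nuclear medians of 0.31, 0.31 and 0.30 and a mitochondrial median of 0.54. On drug against parental cells they gave 2764, 2713 and 3182 genes lower, 25, 25 and 22 nuclear members higher and 18, 18 and 22 lower, 0 mitochondrial members lower, nuclear medians of 0.039, 0.039 and 0.032 and a mitochondrial median of 0.11. As a share of TPM, the mitochondrial genes took a mean of 9.134% on drug, 6.587% off drug and 8.249% in parental cells, with overlap between the libraries of the states.

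Some genes changed sign. On drug against off drug, COX4I1 was at 0.2142 with library size alone and 0.2202 with limma without a filter. There COX8A was at 0.0043 and 0.0034 with library size alone and with limma, NDUFV1 at 0.0306 and at 0.1314 or 0.1329, PPRC1 at 0.1404 or 0.1505 and POLRMT at 0.0162 or 0.0168 with limma. On drug against parental cells with limma, MT-ND3 was at 0.0927, MT-CO3 at 0.0446, UQCR10 at 0.0369 or 0.0372, ATP5MC3 at 0.0589 or 0.0591, NDUFS8 at 0.0978 or 0.0986, COX7A2 at 0.0143, ATP5MC1 at 0.0939 or 0.0942, NDUFV1 at 0.2411 or 0.244, POLRMT at 0.2313 or 0.25 and, without a filter, PPARGC1B at 0.019. The cause was not tested.

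The replicate block gave 2 nuclear rises off drug against parental cells and 0 mitochondrial rises on drug against parental cells. Same-numbered libraries showed little shared deviation, with a median correlation of 0.0165, and the sources used here name no pairing.

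With each library left out, nuclear rises off drug against parental cells ranged from 0 to 3. Mitochondrial rises on drug against off drug ranged from 3 to 8. On drug against parental cells, nuclear rises ranged from 3 to 10, mitochondrial falls from 2 to 10 and mitochondrial rises from 0 to 1. The nuclear median on drug against off drug ranged from -0.0324 to 0.1515.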

Other observations

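Genes that feed the chain changed too. SQOR, which passes electrons from sulfide to ubiquinone, had 1.57 ± 0.308 CPM on drug, 6.22 ± 0.525 off drug and 9.79 ± 1.56 in parental cells (SD, n = 3 each), with a log2 change of -1.98 on drug against off drug (edgeR adjusted p = 7.4e-08). PRODH, the proline dehydrogenase, had 10.3 ± 0.785 CPM on drug, 2.24 ± 0.291 off drug and 13.8 ± 1.12 in parental cells, so that it was higher by 2.20 on drug against off drug and lower by 2.62 off drug against parental cells. Of 7 tested genes of alternative oxidation and uncoupling, 5 rose and 1 fell on drug against off drug. In that comparison 31.4% of all genes were called higher and 31.2% lower. Off drug against parental cells, 0 of the 7 rose and 4 fell, where 28.4% of all genes were called higher and 26.6% lower.

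Around pyruvate, PDP1, a phosphatase that activates pyruvate dehydrogenase, had 80.8 ± 1.59 CPM on drug and 258 ± 6.29 off drug, and PDK4, a kinase that inactivates it, had 1.19 ± 0.307 CPM on drug and 2.76 ± 0.142 off drug. Both fell, by 1.68 and 1.21. Of 12 genes of pyruvate entry, 3 rose and 6 fell in that comparison. Of 13 genes of the TCA cycle, 1 rose and 6 fell, among them OGDH of the oxoglutarate dehydrogenase, with 59.8 ± 6.77 CPM on drug and 132 ± 3.36 off drug (log2 change -1.14). Of 13 genes of cristae and cardiolipin, 0 rose and 6 fell, among them CHCHD6 by 0.89. Over all genes tested, 31.4% were called higher and 31.2% lower on drug against off drug.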
